A study of Mus musculus with 12 samples.

Results

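The globin genes described here are the 5 rows Hba-x, Hba-a1, Hba-a2, Hbb-bh1 and Hbb-y of a table of 23421 gene symbols. They were picked by name, with their levels in all 5 libraries already known, so their levels are given as a description and carry no test. RNA was sequenced from mouse cells that flow cytometry had sorted as positive for Brachyury (T), the transcription factor of the primitive streak and forming mesoderm, on a mixed 129S2/C57Bl6J background. Among the embryos, 1 labelled wild-type library joined Theiler stages TS12 and TS13, and 2 libraries of the T_Y88A mutant came from TS12 and TS13 separately. At Day 4 of differentiation from embryonic stem cells there was 1 labelled wild-type library and 1 of T_Y88A. These cultures had 20 ng/mL BMP4 for 18 hours, then WNT3A and FGF8 at 40 ng/mL each. The series description calls the control embryos T_het, and in the deposited table the control column of the embryos is named like those of the mutants, so every embryo direction rests on the sample label. The labels give neither the number of embryos pooled nor the second T allele of the mutants. Levels are FPKM, mapped fragments scaled to gene length and library size, which allow genes to be compared per length but do not keep the read depth. T was detected in all 5 libraries, from 26.99 FPKM in embryo T_Y88A TS13 to 72.9 in Day 4 wild type. The other samples, 7 chromatin libraries, were not analysed here.

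Haemoglobin joins a pair of alpha-like chains with a pair of beta-like chains. In the mouse the first red cells form in the yolk sac from mesoderm that has left the primitive streak, and these primitive cells make the embryonic chains zeta (Hba-x), beta-h1 (Hbb-bh1) and epsilon-y (Hbb-y) together with the alpha chain of adult life, which is encoded by the paired genes Hba-a1 and Hba-a2. As primitive cells mature, zeta gives way to alpha and beta-h1 to epsilon-y, while the adult beta genes become the main beta genes in the later definitive red cells. Both clusters depend on the erythroid factors GATA1, KLF1 and TAL1.

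The alpha-like members lie on chromosome 11 (RefSeq, GRCm38.p6): Hba-x from 32276600 to 32278116, Hba-a1 from 32283672 to 32284486 and Hba-a2 from 32296492 to 32297310. The beta-like members lie on chromosome 7, with Hbb-bh1 from 103841638 to 103843162 and Hbb-y from 103851754 to 103853207. A RefSeq promoter window, 250 bases before to 50 bases after the annotated start, was matched for 4 of the 5 members. They are shown because the members share one order of levels across the embryo libraries, and because the windows show how alike the Hba-a copies are. Capitals mark, on either strand, GATA (the core read by GATA factors), CACCC (a box read by KLF factors), CCAAT (the box of that name) or TATAA (the TATA box), and the sequences read 5′ to 3′ along each gene. The windows are chr11:32276350-32276649 (plus strand) for Hba-x, chr11:32296242-32296541 (plus strand) for Hba-a2 and chr7:103853158-103853457 (minus strand) for Hbb-y.
Hba-x: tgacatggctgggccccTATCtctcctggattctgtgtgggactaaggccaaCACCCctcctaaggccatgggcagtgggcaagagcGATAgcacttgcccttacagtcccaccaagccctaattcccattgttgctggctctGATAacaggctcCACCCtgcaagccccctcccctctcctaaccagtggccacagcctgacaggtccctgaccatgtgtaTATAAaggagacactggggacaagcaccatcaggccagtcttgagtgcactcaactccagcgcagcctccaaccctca
Hba-a2: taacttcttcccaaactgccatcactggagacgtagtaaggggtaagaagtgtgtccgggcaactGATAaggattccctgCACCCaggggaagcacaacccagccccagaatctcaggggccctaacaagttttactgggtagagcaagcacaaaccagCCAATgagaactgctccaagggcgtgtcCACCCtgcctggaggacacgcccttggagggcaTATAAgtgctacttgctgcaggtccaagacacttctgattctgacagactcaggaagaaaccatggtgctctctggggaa
Hbb-y: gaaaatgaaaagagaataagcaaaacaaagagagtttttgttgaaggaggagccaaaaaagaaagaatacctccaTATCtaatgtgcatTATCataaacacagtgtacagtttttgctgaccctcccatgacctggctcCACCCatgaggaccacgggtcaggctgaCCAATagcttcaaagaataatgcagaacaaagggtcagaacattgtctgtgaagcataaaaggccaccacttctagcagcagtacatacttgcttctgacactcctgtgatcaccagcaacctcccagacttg

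The Hba-a1 window matched that of Hba-a2 at 297 of 297 bases compared, at an offset of 3 bases, so it is not printed. Hba-x held 3 GATA and 2 CACCC matches, Hba-a2 1 and 2, and Hbb-y 2 and 1. CCAAT was matched once in Hba-a2 and once in Hbb-y, and TATAA once in Hba-x and once in Hba-a2. Among 32851 RefSeq promoter windows of the same length, 57.9% held GATA, 57.5% CACCC, 37.4% CCAAT and 24.9% TATAA. The longest word that these windows share on the gene strand was TCCACCC, which overlaps the CACCC box. Counted from the annotated start, it began at position -97 in Hba-x, -65 in Hba-a2 and -113 in Hbb-y, and on either strand it occurred in 8.29% of all windows. TCACACCT, a motif of T-box factors, was in 0 of these windows and in 1.28% of all. These are matches of letters only.

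Globin RNA was abundant in the labelled wild-type embryo library and lower in both T_Y88A libraries, with TS13 above TS12. The 5 members together held 8291 FPKM in the labelled wild-type library, 1381 in T_Y88A TS12 and 2792 in T_Y88A TS13. They made up 1.61%, 0.258% and 0.545% of all FPKM in those libraries. Each of the 5 stood lowest in TS12, between in TS13 and highest in the labelled wild-type library, an order found in 19.5% of the 11142 genes whose embryo libraries averaged 1 FPKM or more. All 5 were at least 2-fold lower in both mutant libraries on the log2(FPKM + 1) scale, against 1.43% of those genes. Since the members were chosen on this contrast, nothing is read from these counts.

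All 5 members passed that filter on low values, Hba-a1 only through the labelled wild-type library. In bulk RNA, fewer red cells among the sorted cells and less globin RNA in each cell cannot be told apart. The labelled wild-type library is a single one, so the spread given below is that between the 2 mutant libraries, which also differ in stage.

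**Figure D1:**
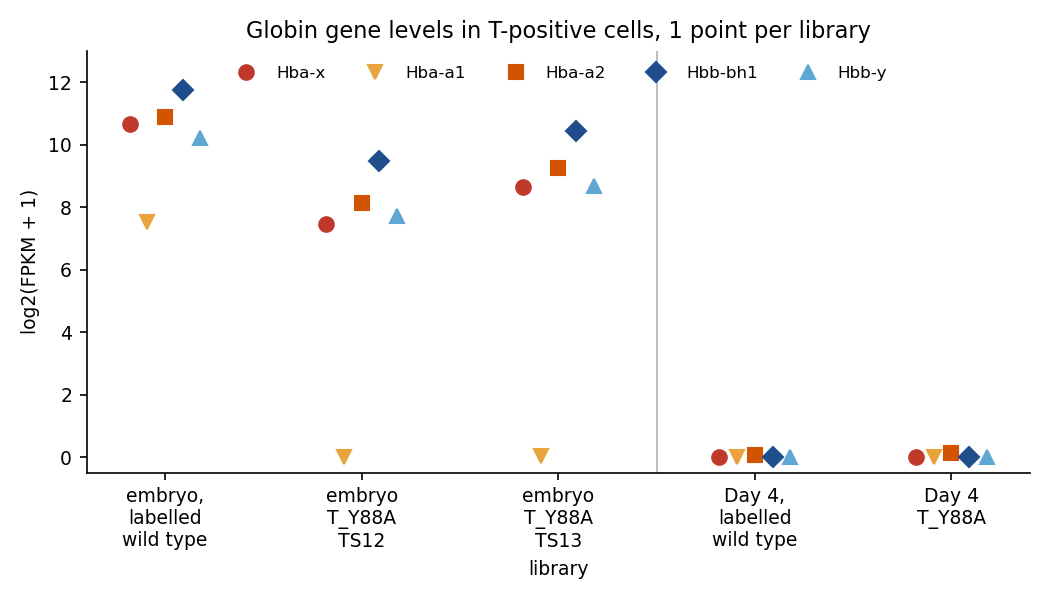
Level of each globin gene as log2(FPKM + 1) in each library, 1 point per library with no error bars. In the embryo, 4 of the 5 genes run from about 10 to 12 in the labelled wild-type library down to about 7 to 10 in T_Y88A, Hba-a1 drops to near 0 in both mutants, and all 5 lie at or near 0 at Day 4.

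Zeta, the embryonic alpha-like chain, differed most among the members whose reads are not shared with a copy. Hba-x stood at 1625 FPKM in the labelled wild-type embryo library, 177 in T_Y88A TS12 and 399 in T_Y88A TS13. Both Day 4 libraries listed it at 0. The labelled wild-type library was thus 9.20-fold above TS12 and 4.07-fold above TS13. The mutant mean was 288 ± 157 FPKM (SD, n = 2), and the log2 difference from the labelled wild-type library was -2.61 with an SD of 0.83 between the mutant libraries.

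The adult-type alpha chain was already as abundant as zeta or more so. Hba-a2 held 1880, 279 and 612 FPKM in the labelled wild-type library, T_Y88A TS12 and T_Y88A TS13. Hba-a1 held 184, 0.0115 and 0.0232 FPKM in the same order. All values of both genes were lower in the mutants, but the near-identical copies share reads and the table divides them differently between libraries: Hba-a1 took 8.91% of the sum of both in the labelled wild-type library, 0.00411% in TS12 and 0.00379% in TS13. Only the sum is therefore read as a level. It was 2064 FPKM in the labelled wild-type library against 279 and 612, which is 7.40-fold and 3.37-fold higher. The log2 difference of the sum was -2.32, with an SD of 0.80 between the mutant libraries.

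Beta-h1, the main beta-like chain of the youngest primitive red cells, was the most abundant globin RNA in every embryo library. Hbb-bh1 stood at 3413 FPKM in the labelled wild-type library, 716 in T_Y88A TS12 and 1372 in T_Y88A TS13. At Day 4 it was listed at 0. It ranked 6 among all gene symbols in the labelled wild-type library, 123 in TS12 and 54 in TS13. It had the smallest difference of the 5 members, 4.76-fold and 2.49-fold, with a log2 difference of -1.78 and an SD of 0.66.

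Epsilon-y, the chain that follows beta-h1 as primitive cells mature, lay below it in each embryo library. Hbb-y held 1190 FPKM in the labelled wild-type library, 209 in T_Y88A TS12 and 408 in T_Y88A TS13. Neither Day 4 library listed it above 0. The labelled wild-type library was 5.69-fold above TS12 and 2.92-fold above TS13, and the log2 difference was -2.02 with an SD of 0.68.

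In FPKM the order was Hbb-bh1, Hba-a1 and Hba-a2 summed, Hba-x and then Hbb-y in the labelled wild-type library. Hbb-y lay above Hba-x in both mutants, in TS13 only by 408 against 399 FPKM. The mutant means were 288 ± 157 for Hba-x, 309 ± 141 for Hbb-y and 445 ± 236 for Hba-a1 and Hba-a2 summed (SD, n = 2 each). These ranges overlap, but the spread is the difference between TS12 and TS13 that the genes share, and the order was the same in both mutant libraries. Between the mutant libraries, TS13 was above TS12 by 2.26-fold for Hba-x, 2.20-fold for Hba-a1 and Hba-a2 summed, 1.95-fold for Hbb-y and 1.92-fold for Hbb-bh1. On the log2(FPKM + 1) scale, 2 of the 5 members, Hba-x and Hba-a2, were at least 2-fold higher in TS13. The share was 0.443% of the 11054 genes whose mutant libraries averaged 1 FPKM or more, a filter that Hba-a1 (mutant mean 0.0173 FPKM) did not pass. The members were chosen with these values known, so nothing is read from this count. Each stage was 1 library, so the difference between TS12 and TS13 has no replicate check.

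The make-up of the globin RNA moved less than its amount. Zeta made up 44.0% of alpha-like FPKM in the labelled wild-type library, 38.7% in T_Y88A TS12 and 39.5% in T_Y88A TS13. The ratio of Hba-a1 and Hba-a2 together to Hba-x was 1.27, 1.58 and 1.53 in the same order. Beta-h1 made up 73.8%, 77.0% and 76.8% of beta-like FPKM, and the ratio of Hbb-bh1 to Hbb-y was 2.87, 3.42 and 3.36. The mutant libraries thus lay close together and on the same side of the labelled wild-type library for both ratios. Relative to the labelled wild-type library, both mutants had more alpha per zeta and more beta-h1 per epsilon-y. The alpha-like sum divided by the beta-like sum was 0.799 in the labelled wild-type library, 0.490 in TS12 and 0.566 in TS13. With 1 labelled wild-type library these ratios have no test.

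**Figure D2:**
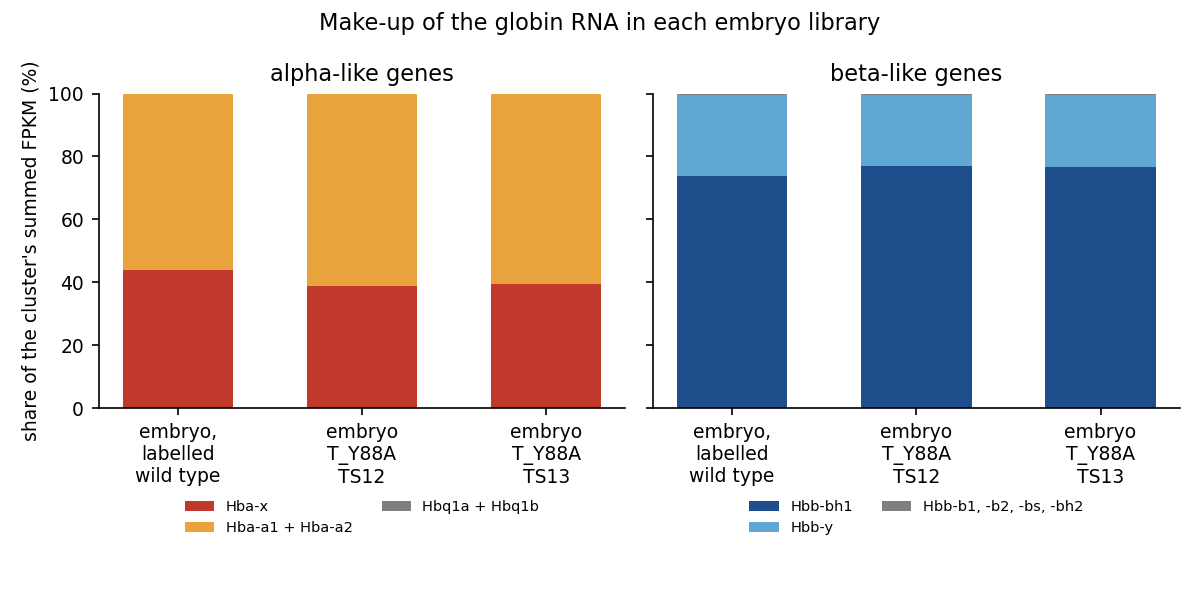
Share of each gene in the summed FPKM (%) of the alpha-like genes (left) and of the beta-like genes (right) in the 3 embryo libraries, 1 bar per library. Hba-x takes 44.0%, 38.7% and 39.5% of the alpha-like bars and Hbb-bh1 73.8%, 77.0% and 76.8% of the beta-like bars, from the labelled wild-type library to T_Y88A TS12 and TS13.

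The other globin rows of both clusters were low. The adult beta genes Hbb-b1 and Hbb-b2, near copies of each other and of Hbb-bs, held 10.4 and 6.45 FPKM in the labelled wild-type library, 2.15 and 2.226 in T_Y88A TS12, and 4.35 and 1.89 in T_Y88A TS13. Together they made up 0.365%, 0.471% and 0.349% of beta-like FPKM. limma, a linear model with variances shared across genes, called both lower (log2 differences -1.48 ± 0.30 and -1.29 ± 0.25 SE, Benjamini-Hochberg adjusted p = 0.0229 and 0.0205). Near copies can share reads, so these are not 2 separate results, and their sum was not tested. T_Y88A TS13 over TS12 was 2.02-fold for Hbb-b1 and 0.847-fold for Hbb-b2. The theta-like gene Hbq1b was called lower too, from 3.76 FPKM to 0.767 and 0.463 (limma log2 difference -1.57 ± 0.29 SE, adjusted p = 0.0167). It averaged 0.615 FPKM in the mutants and passed the filter of 1 FPKM only through the labelled wild-type library. A lower mutant mean was thus set in advance by the filter, and nothing is read from this call. The beta-like gene Hbb-bh2, with a mutant mean of 0.702 FPKM, passed in the same way and stood at 2.28, 0.342 and 1.06 FPKM (limma adjusted p = 0.159). Hbq1a held 0.398, 0 and 0.0820 FPKM, and Hbb-bs at most 0.0178 in any library. The globins of other tissues stayed under 1 FPKM in all 5 libraries. Myoglobin (Mb), the oxygen store of muscle, reached 0.593 FPKM in Day 4 wild type, cytoglobin (Cygb) 0.393 in T_Y88A TS13, and neuroglobin (Ngb) 0.181 in Day 4 T_Y88A. Of all 11142 genes tested in this fit, 2.41% were called in either direction and 1.64% were called lower.

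At Day 4 globin RNA was at or near 0 in both genotypes. Hba-x, Hbb-bh1 and Hbb-y were listed at 0 in both libraries. Hba-a2 held 0.0404 FPKM in the labelled wild-type library and 0.0862 in T_Y88A, and Hba-a1 0.000813 and 0.000383. Of the 5 members, 0 passed the filter of 1 FPKM at Day 4, so none entered the comparison of genotypes there, in which 1.3% of all genes were at least 2-fold lower in T_Y88A and 0.641% at least 2-fold higher on the log2(FPKM + 1) scale. The labelled wild-type embryo library was at least 2-fold above the Day 4 labelled wild-type library for all 5, as for 11.3% of all genes compared. The members passed the filter of that comparison only through the embryo library, which set this outcome in advance. They were also chosen with these values known, so nothing is read from this count. The absolute depth is unknown, so no limit of detection can be given.

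Many regulators of red cell genes were lower in the T_Y88A embryos. Of 13 erythroid transcription factors tested, limma called 8 lower and 0 higher, and 5 did not pass, against 1.64% of all genes called lower. In both T_Y88A libraries, 10 lay lower, against 38.0% of all genes, and 2 higher. Gfi1b and Ikzf1, both called, averaged 0.362 and 0.538 FPKM in the mutants. They passed the filter of 1 FPKM only through the labelled wild-type library, so their lower mutant means were set in advance. Klf1, which activates globin genes through CACCC boxes, stood at 14.1 FPKM in the labelled wild-type library and at 0.686 and 1.63 in T_Y88A TS12 and TS13. This was the largest difference of the list (limma log2 difference -2.85 ± 0.30 SE, adjusted p = 0.000447). Tal1, a helix-loop-helix factor needed for all blood, held 15.3, 4.25 and 5.46 FPKM (adjusted p = 0.00562 by limma). Its partner Lmo2 held 38.7, 16.1 and 10.8 FPKM (adjusted p = 0.00604 by limma). Nfe2, the erythroid and megakaryocytic factor, held 9.85, 2.45 and 2.63 FPKM (adjusted p = 0.00408 by limma). A pair of broadly expressed members did not pass, the adaptor Ldb1 at 52.7, 46.98 and 43.997 FPKM and Klf3 at 4.44, 3.95 and 5.54 FPKM.

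Haem, the iron-bearing group that each globin chain holds, is made by a chain of enzymes. Of 14 haem genes tested, limma called 7 lower and 0 higher, and 7 did not pass, against 1.64% of all genes called lower. In both T_Y88A libraries, 10 lay lower, against 38.0% of all genes, and 3 higher. The 3 were Alas1, Slc25a38 and Hmox1 (2.97, 4.71 and 7.07 FPKM), none of them called. Alas2, the erythroid form of the first and limiting enzyme, stood at 29.3 FPKM in the labelled wild-type library against 4.66 and 8.76 in T_Y88A TS12 and TS13 (limma log2 difference -2.03 ± 0.28 SE, adjusted p = 0.00282). Cpox, a later enzyme of the chain, held 90.2, 24.0 and 33.5 FPKM (adjusted p = 0.00163 by limma). Blvrb, a biliverdin reductase that acts on haem breakdown products, held 29.7, 6.71 and 6.87 FPKM (adjusted p = 0.000339 by limma). Urod held 64.5, 55.9 and 33.4 FPKM and did not pass (adjusted p = 0.272 by limma).

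Red cell membrane and surface genes had the lowest median of these lists. Of 16 tested, 12 fell, against 1.64% of all genes, 0 rose and 4 did not pass. All 16 lay lower in both T_Y88A libraries, against 38.0% of all genes. These counts include Ank1, Rhag, Kel, Epor and Tmod1, which averaged 0.654 to 0.998 FPKM in the mutants. They passed the filter of 1 FPKM only through the labelled wild-type library, so their lower mutant means were set in advance. Slc4a1, the band 3 anion exchanger, held 36.97 FPKM in the labelled wild-type library against 3.69 and 7.77 (limma log2 difference -2.57 ± 0.30 SE, adjusted p = 0.00114). Car2, a carbonic anhydrase of red cells and other tissues, held 75.1, 22.1 and 28.9 FPKM (adjusted p = 0.00163 by limma), and it was high at Day 4 (133 and 149 FPKM). Ermap, a red cell surface protein, held 6.75, 0.777 and 1.23 FPKM (adjusted p = 0.00308 by limma). The membrane protein gene Epb4.1, used in many cell types, held 61.7, 35.7 and 46.98 FPKM and did not pass (adjusted p = 0.151 by limma).

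Genes for iron handling and red cell redox defence, which most cells also use, gave no calls. Of 5 iron genes and 4 redox genes tested, 0 passed limma's adjusted threshold, and at an unadjusted p under 0.05 there were Fth1 (log2 difference -0.48) and Cat (-0.45). The median log2 differences were -0.17 and -0.19, and 4 of the 5 iron and 3 of the 4 redox genes lay lower in both T_Y88A libraries, against the 38.0% of all genes given above. The transferrin receptor Tfrc held 69.7, 61.9 and 61.9 FPKM, the ferritin chains Fth1 186.6, 130.1 and 137.5 and Ftl1 249.6, 252.0 and 250.1 FPKM, and the iron transporter Slc11a2 8.09, 5.71 and 5.61 FPKM. The peroxiredoxin Prdx2 held 563, 614 and 521 FPKM, the dismutase Sod1 549, 493 and 488, the peroxidase Gpx1 186.3, 161.8 and 156 and catalase (Cat) 31.4, 21.9 and 23.4.

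Over the factor, haem, iron, redox and membrane lists, 27 of 52 tested genes were called lower, against 1.64% of all genes, and 0 higher. The median log2 difference was -1.32 against -0.01 over all genes. The 27 include Gfi1b, Ikzf1, Ank1, Rhag and Kel, which passed the filter only through the labelled wild-type library. By library the median was -1.41 in T_Y88A TS12 and -1.09 in T_Y88A TS13. Of the 52 genes, 41 stood higher in TS13 than in TS12, against 5388 of 11142 over all genes. The count of 27 became 3 under quantile normalization, where the calls for Hbb-b1, Hbb-b2, Hbq1b, Tal1, Lmo2, Nfe2, Alas2, Cpox, Slc4a1, Car2 and Ermap ended. It became 0 with no filter on low values (40 of 67 at an unadjusted p under 0.05) and 0 in a limma fit over all 5 libraries (18 of 52 at an unadjusted p under 0.05), which assumes the same change at Day 4 and in which the calls for all 13 named genes, the 3 globin genes among them, ended.

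**Figure D3:**
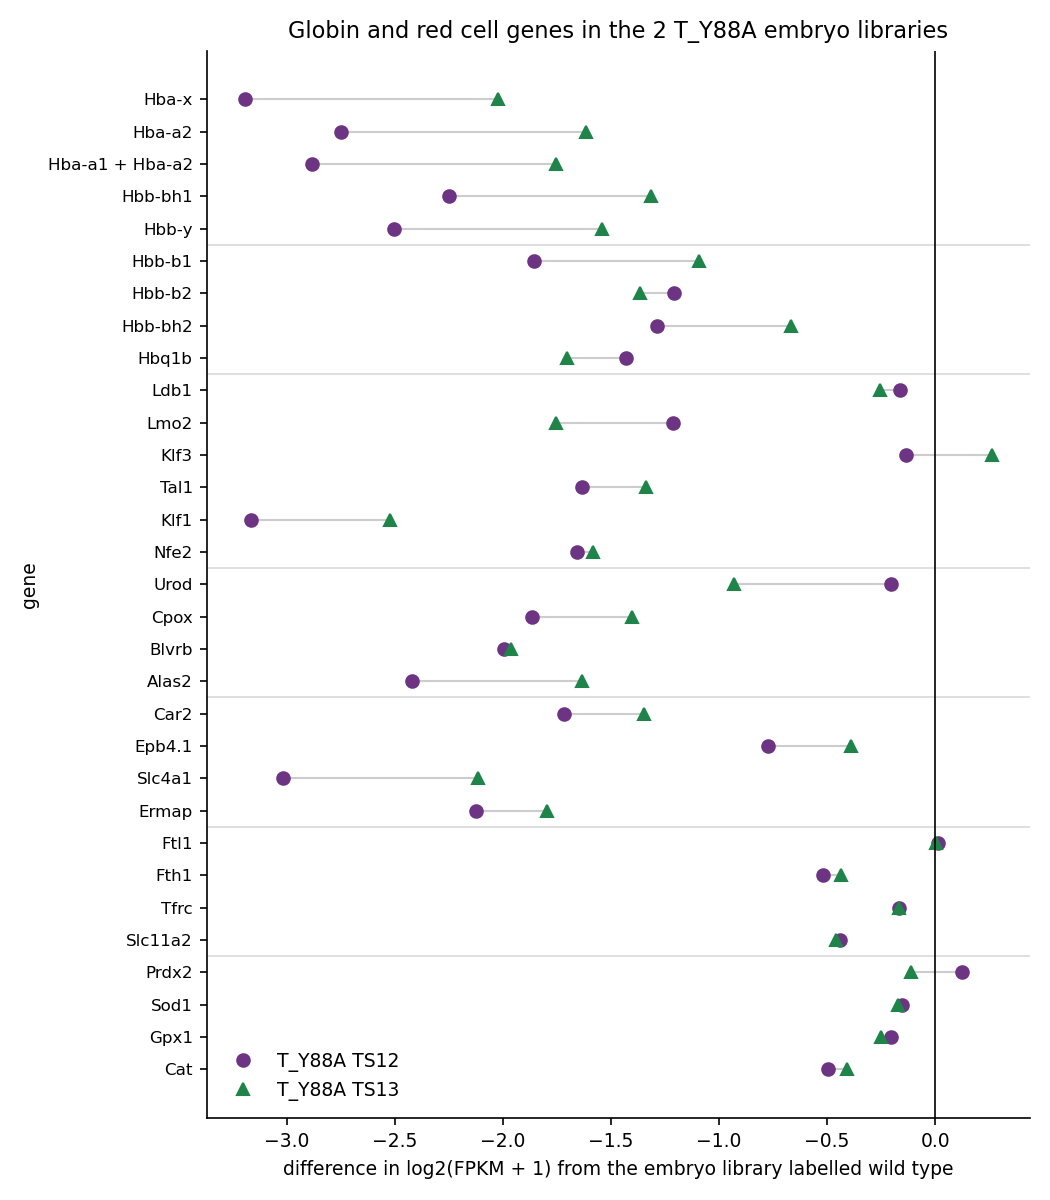
Difference in log2(FPKM + 1) from the labelled wild-type embryo library for globin genes (top) and named red cell genes, with T_Y88A TS12 as circles and TS13 as triangles, 1 library each. Hba-x (-3.19) and Klf1 (-3.17) lie farthest left in TS12 and Klf1 (-2.52) in TS13, and iron and redox genes lie near 0; Hba-a1 is drawn only in its sum with Hba-a2.

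Endothelial genes, which mark the vessel lining that arises beside the first blood, moved with the globin genes. Of 16 tested, 10 fell and 0 rose (limma), and all 16 lay lower in both T_Y88A libraries. Over all genes, 1.64% were called lower and 38.0% lay lower in both. Emcn and Sox17, both uncalled, averaged 0.602 and 0.908 FPKM in the mutants and passed the filter only through the labelled wild-type library. The endothelial calls were not followed through the other settings, under which the count over all genes dropped as given below. The 18 listed genes summed to 172 FPKM in the labelled wild-type library, 62.4 in T_Y88A TS12 and 86.5 in T_Y88A TS13, with 0 genes at 0. The 9 megakaryocyte and platelet genes summed to 5.15, 2.22 and 1.88 FPKM, with Pf4 and Ppbp at 0 in the 3 libraries, and the 8 macrophage and white cell genes to 4.02, 2.51 and 2.25 FPKM, with Ptprc at 0, 0 and 0.0287. The 9 visceral endoderm and yolk sac genes summed to 2.63, 3.99 and 3.46 FPKM, with Afp at 0, 0.107 and 0.0119. Streak and early mesoderm genes, 10 in all, summed to 230.3, 214 and 116 FPKM, a sum made up mostly of T and Cdx2, and 2 of the 7 tested fell while 0 rose. These were Msgn1 (41.1, 3.48 and 2.71 FPKM) and Tbx6 (12.6, 4.79 and 1.60 FPKM), both mesoderm transcription factors, named after their values were seen. The part of these cell types in the globin levels was not tested.

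**Figure D4:**
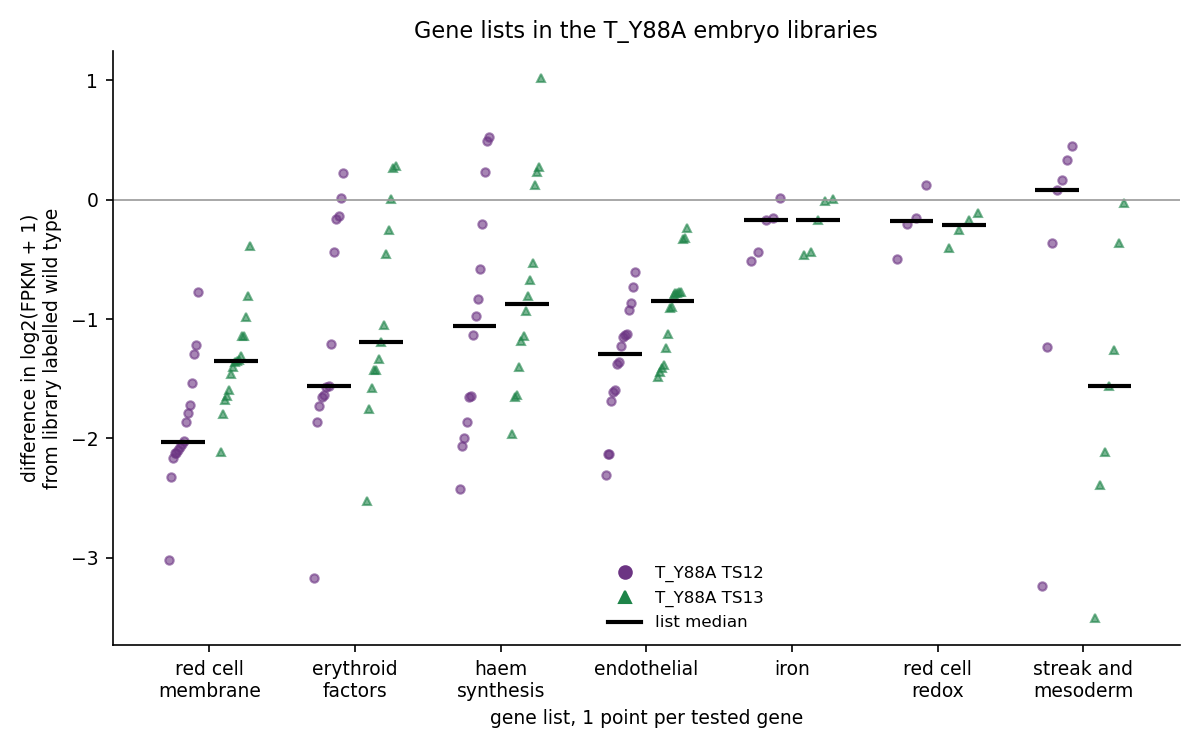
Difference in log2(FPKM + 1) from the labelled wild-type embryo library for each tested gene of 7 lists, with T_Y88A TS12 as circles, TS13 as triangles and black bars for list medians. Red cell membrane genes have medians of -2.03 and -1.35 and endothelial genes of -1.29 and -0.85, while iron genes have -0.17 in both.

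The genes beside the globin clusters had smaller differences than the members. On the alpha side, Nprl3, which holds the main enhancers of the alpha genes in its introns, ends 8.89 kb before Hba-x and held 5.40 FPKM in the labelled wild-type library, 3.49 in T_Y88A TS12 and 2.26 in T_Y88A TS13. Mpg held 5.15, 3.74 and 3.73 FPKM, and Rhbdf1 2.76, 2.88 and 3.69. After the cluster, Sh3pxd2b held 4.25, 2.95 and 3.85 FPKM, Ubtd2 29.4, 32.0 and 34.3, and Efcab9 0.219, 0.457 and 0. Nprl3 was also present at Day 4, at 3.80 FPKM in the labelled wild-type library and 4.59 in T_Y88A, where the embryonic globin genes were listed at 0. The beta cluster lies among olfactory receptor genes, and the 6 nearest had at most 0.0419 FPKM in any library.

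Over all 5 libraries, the genes whose centred log2(FPKM + 1) profile lay nearest to the mean globin profile were high in the embryo and low in culture. The 10 nearest of 11594 were Mira, Hoxc8, Cdx4, Hoxb9, Cdx2, 2700086A05Rik, Hoxa9, Crabp2, Hoxc4 and Crabp1, at root mean square distances of 1.66 to 2.30 log2 units. Mira, the nearest, held 97.3, 82.3 and 80.6 FPKM in the embryo libraries and was listed at 0 in both Day 4 libraries. Of the 10, only Mira and Hoxc4 (43.9, 38.1 and 42.3 FPKM) lay below the labelled wild-type library in both mutant libraries. Hoxb9 (64.3, 102 and 125 FPKM) and Crabp2 (285, 408 and 482 FPKM) stood above it in both. Cdx4, Cdx2 (73.8, 101 and 72.3 FPKM), 2700086A05Rik and Crabp1 stood above it in T_Y88A TS12 only, and Hoxc8 and Hoxa9 in TS13 only.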

How the data were processed

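RNA was sequenced from T-positive cells in 5 libraries (ScriptSeq v2 low-input kit, per the labels' protocols). Levels are the authors' deposited FPKM. The submitters' processing notes name Cufflinks 2.1.1, TopHat2 2.0.8, bedtools 2.23.0 and build mm10, without roles. Strand setting and annotation are not given in the sources used here. All 5 columns were matched to samples by label numbers and stages. Values were analysed as log2(FPKM + 1), which understates changes of low genes. limma 3.58.1 in R 4.3.3, with a variance trend, compared 2 T_Y88A embryo libraries with 1 labelled wild type over the 11142 genes averaging 1 FPKM or more there (1 residual degree of freedom; two-sided p, Benjamini-Hochberg over all genes, threshold 0.05). The fit assumes that the lone library varies like the mutants. It was also run on simulated data in which all libraries varied alike, so that run cannot check this assumption. A gene's own spread in this fit is the difference between T_Y88A TS12 and TS13. Most of the variance used is borrowed from other genes (11.0 prior degrees of freedom against 1 residual). Nothing says that libraries came from separate litters, so the p-values do not measure the spread between litters. 798 small RNA genes were left out. FPKM hold no depth, so no counting intervals are given. An exact 0 can be a failed estimate and is described as listed at 0. The filter favours genes high in the labelled wild-type library among those that fell.

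The members and lists were chosen with earlier results of these data known. Named genes were all other globin rows, and in each list the 4 with the highest mean FPKM over all libraries and the 2 with the largest embryo difference; pattern genes were the 10 nearest profiles. Some genes under these rules stay in the fits and list counts but are not reported here. Ahsp and Hbb-bt were not analysed here. Alternatives were another pseudocount (0.1), no filter, quantile normalization, rescaling without globin genes, other variance models, keeping small RNA genes, a fit over all libraries, and leaving out each T_Y88A embryo library. Python 3.11.15 and matplotlib 3.10.9 drew the plots.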

Additional observations from a re-analysis of the deposited data

Results flagged for a closer look

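The members, Hba-a1 and Hba-a2 summed, all globin rows summed and the named genes were compared by direction alone. For 21 of these, both T_Y88A embryo libraries lay on one side of the labelled wild-type library and the T_Y88A library on the other side at Day 4. No least size was set, some items overlap, such as Hba-a2 and the sums that hold it, and the share over all genes was not worked out. Nothing is therefore read from the count. The difference between embryo and culture was not tested, and each Day 4 value compares 1 library with 1. The Day 4 differences in log2(FPKM + 1), T_Y88A minus labelled wild type, were small for the globins: 0.34 for all globin rows summed, 0.0622 for Hba-a2 and 0.0616 for Hba-a1 and Hba-a2 summed, 0.10 for Hbb-b1 and 0.21 for Hbb-b2, all from levels under 0.4 FPKM. Of the genes lower in the T_Y88A embryos, they were 0.0871 for Klf1, 0.0209 for Tal1, 0.29 for Lmo2, 0.38 for Nfe2, 0.48 for Alas2, 0.47 for Urod, 0.22 for Cpox, 0.53 for Blvrb, 0.26 for Ermap, 0.16 for Car2 and 0.19 for Epb4.1. Iron and redox genes gave 0.55 for Tfrc, 0.28 for Slc11a2, 0.0424 for Cat and 0.30 for Gpx1. Mb was the reverse case, with -0.32 at Day 4 and higher values in both T_Y88A embryo libraries.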

How the results depend on the processing

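The embryo log2 differences of Hba-x, Hba-a2, Hbb-bh1, Hbb-y and the globin sum kept their direction under the rescaling, quantile normalization, the pseudocount of 0.1 and leaving out either T_Y88A library. Under the first 3 they moved by less than the SD between the mutant libraries; with a library left out they take the value of the other one. That of Hba-a1 (-7.51) became -7.53 after rescaling and -10.62 at the pseudocount of 0.1. The Day 4 difference of the globin sum (0.34) became 0.25 under quantile normalization and 1.57 at the pseudocount of 0.1. The count of called genes was 268 (85 higher, 183 lower), 31 under quantile normalization (3 higher, 28 lower), 0 with no filter (2250 at an unadjusted p under 0.05) and 6 in the fit over 5 libraries. Leaving out a T_Y88A embryo library was run only in that fit, with the Day 4 pair included, and gave 4 to 10. The count over the red cell lists was 27, then 3, 0 and 0, and 0 with either library left out of the fit over 5 libraries (10 to 11 at an unadjusted p under 0.05), which gave 0 already with all of them. The causes were not tested. Of 13 named calls, all 13 ended with no filter, in the fit over 5 libraries and in that fit with either library left out, 11 under quantile normalization, all but those for Klf1 and Blvrb, 1 without the variance trend (Hbb-b1), 1 with robust variances (Slc4a1) and 1 with small RNA genes kept (Hbb-b1). Uncalled genes changed sign: Ftl1 (-0.0259 under quantile normalization, -0.0276 after rescaling) and Prdx2 (-0.0645 and -0.0282), and in the fit over 5 libraries Klf3 (-0.0361) and Tfrc (0.14). In that fit with a library left out, Klf3 ranged from -0.15 to 0.0475, Urod from -0.23 to 0.13 and Gpx1 from 0.0241 to 0.0490, and Tfrc was 0.19, although both T_Y88A embryo libraries lay below the labelled wild-type one for Gpx1 and Tfrc. No paired analysis was possible, since 1 labelled wild-type embryo library joined both stages and Day 4 had 1 library of each genotype. The labels also give no replicate numbers. Depth is unknown, which leaves the lowest values, such as Hba-a1 in the mutants, without a counting error.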

Other observations

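Set against single red cell genes, globin RNA kept different proportions in the embryo libraries. The sum of all globin rows divided by Alas2 was 284 in the labelled wild-type library, 298 in T_Y88A TS12 and 320 in T_Y88A TS13, while the sum itself was 8315, 1386 and 2799.7 FPKM. Divided by Slc4a1 it was 225, 376 and 360. Divided by Klf1 it was 589, 2022 and 1718, and divided by Tal1 543, 326 and 513. The ratios to Alas2, Slc4a1 and Klf1 were thus higher in both mutant libraries, and that to Tal1 lower in both. The differences were small for Alas2 and, in TS13, for Tal1. Klf1 in TS12 was only 0.686 FPKM, so its ratio there rests on a low value. These genes were chosen after their values were seen, and the ratios have no test.

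When likeness to the globins was measured over the 3 embryo libraries only, a choice made after seeing the data, the nearest of 11137 genes included Alas2, Plvap, Gypc, Slc4a1, Hebp1, Sptb, Ramp2, Cdh5 and 9430076G02Rik. Alas2, Gypc, Slc4a1 and Sptb were in the red cell lists, and Plvap, Ramp2 and Cdh5 in the endothelial list. Hebp1, a haem-binding protein in no list here, held 26.6, 4.87 and 8.003 FPKM. With 3 libraries this describes shape and size only.

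At Day 4, Gata1, the erythroid master factor, held 0.537 FPKM in the labelled wild-type library and 2.08 in T_Y88A, next to 1.32 and 1.99 in the T_Y88A embryo libraries and 5.84 in the labelled wild-type embryo library. The embryonic globins were listed at 0 in both Day 4 libraries. Gata1 was named here after its values were seen.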
